A study of Mus musculus with 6 samples.

Results

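Chemokines are small secreted proteins that direct the movement of leukocytes along a concentration gradient, and their receptors are 7-pass membrane proteins that signal through inhibitory G proteins. Atypical receptors bind the same ligands without that signal and act as scavengers. In bone marrow, stromal cells and macrophages release chemokines that hold, attract or release monocytes, neutrophils and lymphocytes. The genes described here are all those of the deposited table named as CC, CXC, CX3C or XC ligands or as their typical or atypical receptors, except 1 ligand. They numbered 60 of the 56980 genes in the table, 38 of them ligands and 22 receptors, of which 4 were atypical.

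The study asked how fecal microbiota transplantation (FMT) from exercised mice acts on bone in mice that had lost their ovaries, and RNA-Seq was run on bone marrow cells labelled as mesenchymal stem cells (MSCs). All recipients were female mice that underwent ovariectomy (OVX) at 8 weeks of age, had their gut bacteria depleted by antibiotics and then received FMT for 8 weeks. In the TranspCtrl group (n = 3) the donors were sedentary OVX mice, and in the TranspExer group (n = 3) they were exercised OVX mice. Flushed marrow was cultured for 7 days with washes and no sorting step is described. The mouse strain is not given in the sources used here. The labels do not say whether the 3 samples of a group were separate animals or cultures, so p-values measure the spread between these samples, which may be technical.

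Totals ran from 17647638 to 21319166 estimated counts per sample, and a count of 3, the limit that a count of 0 allows, equalled 0.139 to 0.174 CPM (counts per 1e+06 counts of the library, TMM-scaled as throughout, counting error only). TranspCtrl replicate 1 stood apart from the other 2 TranspCtrl samples, with a score of 29.7 on the second principal component (11.9% of the variance) against -22.7 and -19. On the first component (71.4% of the variance), along which the groups parted, its score was -61.2 against -30.9 and -32.4. The TranspExer scores there were 41 to 42.4, so this sample widened the distance between the groups. Markers of other cell types were present beside those of stromal cells. The 15 stromal markers summed to between 13341 and 21857 CPM in the 6 samples, the 15 macrophage and monocyte markers to between 8223 and 14869 CPM, and the 11 neutrophil markers to between 3301 and 5844 CPM. None of the 104 markers of 11 cell types was at 0 in all samples. In such bulk samples fewer cells of a type and less RNA per cell cannot be told apart.

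Chemokine ligands were mostly lower in the TranspExer group, whereas receptors moved both ways. A gene was called when edgeR's quasi-likelihood test gave a Benjamini-Hochberg adjusted p under 0.05 and the fold change was at least 2. Of the 38 ligands, 23 passed the low-count filter and were tested, and 10 of these were called lower and 1 higher. Of the 22 receptors, 19 were tested, and 2 were called lower and 1 higher. Among all 15190 genes tested, 5.28% were called lower and 3.50% higher. By adjusted p alone, 13 ligands were lower and 4 higher, and 7 receptors were lower and 4 higher, where 15.5% of all genes were lower and 16.6% higher. The median log2 fold change (TranspExer over TranspCtrl) was -0.94 over the tested ligands, -0.22 over the tested receptors and -0.02 over all genes tested. Among tested members, in 14 ligands and 9 receptors all TranspExer samples lay below all TranspCtrl samples, and in 4 ligands and 6 receptors all lay above. The same was true of 25.1% and 27.2% of all genes tested, lower and higher. Without TranspCtrl replicate 1, 7 ligands and 2 receptors were called lower, and 1 ligand and 2 receptors higher. With scaling by library size only, 4 receptors were called lower and 1 higher, and by adjusted p alone 8 were lower and 2 higher.

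**Figure D1:**
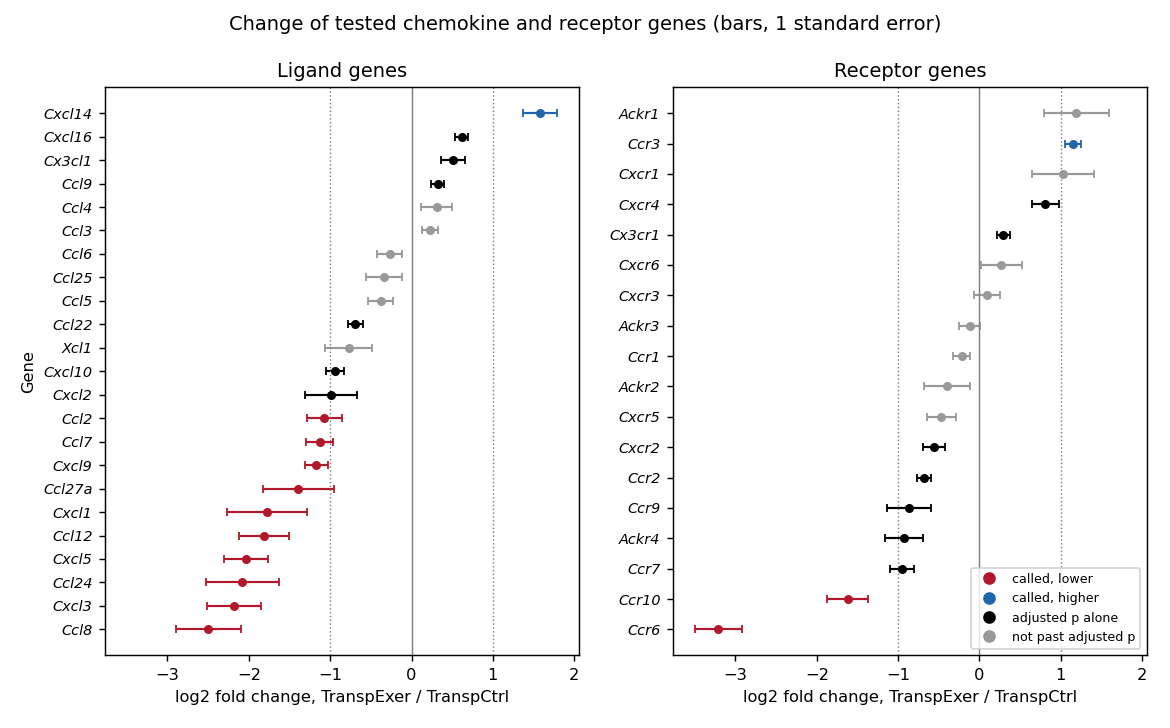
Log2 fold change (TranspExer over TranspCtrl, horizontal axis) of the 23 tested ligand genes and 18 of the 19 tested receptor genes, with bars of 1 standard error and dotted lines at a fold change of 2. Among the ligands 17 lay below 0, down to -2.50 for Ccl8, and among the receptors 11 lay below 0, down to -3.21 for Ccr6.

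Of the members not tested, 7 ligands had no count in any sample (*Ccl21b*, *Ccl21d*, *Ccl26*, *Ccl27b*, *Cxcl13*, *Cxcl15* and *Cxcl17*). Another 8 ligands and 3 receptors had counts below the filter, the highest being 11 counts of *Ccl17* in TranspCtrl replicate 1. Per kilobase of the gene length given in the table, *Ccl6* had the highest level of any member, with 524, 365 and 375 CPM per kb in TranspCtrl and 374, 348 and 325 in TranspExer. Below it in the TranspCtrl means came *Ccl9* at 100 CPM per kb, *Ccl2* at 73.3, *Cxcr4* at 70.5, *Ccr1* at 48.6, *Cxcl16* at 45.9 and *Ccl7* at 41.4. *Ccl6* lay above the others in every sample, whereas from *Ccl9* to *Ccl7* each gene overlapped with the next over the TranspCtrl samples. In TranspExer the order was *Ccl6* at 349 CPM per kb, *Ccl9* at 126, *Cxcr4* at 123, *Cxcl16* at 70.7, *Ccr1* at 41.7 and *Ccl3* at 41.3, and *Ccl2* stood at 34.9. Here *Ccl9* and *Cxcr4* overlapped over the TranspExer samples, as did *Ccr1* and *Ccl3*, and the other neighbours in this order did not.

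Of the 10 ligands called lower, 8 lay in 3 groups of neighbouring genes, so stretches before their starts are shown first. RefSeq promoter windows (GRCm38.p6) were at hand for 45 of the 60 members, and the 250 bases before the gene start were searched on both strands for letters of the type bound by NF-kappaB (GGG, any 3 bases, TTCC), the factor that acts downstream of inflammatory signals. Motifs and neighbour groups were chosen after the values were seen. Overlapping matches were merged. Such letters occurred in 4.65% of 32851 windows and in 9 of the 45 members (20.0%). The shares are not in like units, since a member with several windows counted when any of them held a match. *Cxcl3*, *Cxcl1*, *Cxcl2* and *Cxcl10* held 2 matches each, more than any other member with a window. A second motif, of the type bound by interferon-activated factors (GAAA, any 2 bases, GAAA), occurred in 2.98% of windows and in 1 place each in *Cxcl10*, *Cxcl14* and *Ccl19*. The 4 windows with 2 matches of the first type are printed 5′ to 3′ on the gene's strand, with matches of both types in capitals, for Cxcl3 (chr5:90785851-90786100, plus strand), Cxcl1 (chr5:90890995-90891244, plus), Cxcl2 (chr5:90903649-90903898, plus) and Cxcl10 (chr5:92348890-92349139, minus).
Cxcl3: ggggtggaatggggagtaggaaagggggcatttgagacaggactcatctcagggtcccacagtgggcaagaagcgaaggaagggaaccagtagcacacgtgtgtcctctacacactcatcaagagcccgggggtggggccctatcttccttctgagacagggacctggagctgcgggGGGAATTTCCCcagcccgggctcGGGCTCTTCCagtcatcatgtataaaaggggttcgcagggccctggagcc
Cxcl1: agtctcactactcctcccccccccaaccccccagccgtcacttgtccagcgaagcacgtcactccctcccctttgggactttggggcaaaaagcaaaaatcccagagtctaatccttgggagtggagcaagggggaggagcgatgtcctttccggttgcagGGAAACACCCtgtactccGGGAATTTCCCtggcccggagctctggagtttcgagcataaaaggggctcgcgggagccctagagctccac
Cxcl2: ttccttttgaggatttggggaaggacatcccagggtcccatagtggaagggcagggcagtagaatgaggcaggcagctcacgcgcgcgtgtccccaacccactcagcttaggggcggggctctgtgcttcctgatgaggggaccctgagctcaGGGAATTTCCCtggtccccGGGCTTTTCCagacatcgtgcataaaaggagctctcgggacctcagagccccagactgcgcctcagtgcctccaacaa
Cxcl10: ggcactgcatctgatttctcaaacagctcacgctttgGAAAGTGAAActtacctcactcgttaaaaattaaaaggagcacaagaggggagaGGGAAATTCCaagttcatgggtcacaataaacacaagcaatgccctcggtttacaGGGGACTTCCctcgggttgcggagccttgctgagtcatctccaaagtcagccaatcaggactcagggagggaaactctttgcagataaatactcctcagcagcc

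The stretch GGGAATTTCCC, which matches on both strands, stood in all 3 of the *Cxcl1*, *Cxcl2* and *Cxcl3* windows, and each had a second match 8 or 12 bases away. For contrast, the windows of Ccl12 (chr11:82101595-82101844, plus) and Ccl8 (chr11:82114935-82115184, plus), which fell furthest among the monocyte attractants, held neither motif, and that of Cxcl14 (chr13:56296552-56296801, minus), which rose, held a match of the second type. *Ccr3* and *Ccl9*, which were higher, each held a match of the first type, and *Cxcl9*, which was called lower, held none of either. *Ccr6*, also called lower, held a match of the first type in 1 of its windows. Among members with a window, the first motif stood in 3 of 7 called lower and 1 of 2 called higher. It stood in 3 of 22 tested but not called and in 2 of 14 not tested. No window was at hand for *Ccl2*, *Ccl7*, *Cxcl5* and *Ccl24*.
Ccl12: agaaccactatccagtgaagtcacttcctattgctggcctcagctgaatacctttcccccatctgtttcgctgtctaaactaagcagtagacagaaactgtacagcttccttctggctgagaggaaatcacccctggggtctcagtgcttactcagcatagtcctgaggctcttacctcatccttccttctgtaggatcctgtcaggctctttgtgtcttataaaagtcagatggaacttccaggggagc
Ccl8: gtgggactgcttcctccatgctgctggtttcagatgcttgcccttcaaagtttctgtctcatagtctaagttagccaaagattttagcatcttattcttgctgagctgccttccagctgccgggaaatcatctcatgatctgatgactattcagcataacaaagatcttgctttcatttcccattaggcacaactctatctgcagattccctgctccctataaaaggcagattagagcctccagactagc
Cxcl14: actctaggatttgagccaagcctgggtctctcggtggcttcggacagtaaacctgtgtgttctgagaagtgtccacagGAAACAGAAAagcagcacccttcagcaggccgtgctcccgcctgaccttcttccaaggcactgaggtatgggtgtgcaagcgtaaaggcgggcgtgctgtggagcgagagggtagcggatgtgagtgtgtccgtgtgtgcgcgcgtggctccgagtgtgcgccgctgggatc
A match is a description of letters and not a shown binding site, and the absence of a match says only that these letters are not in this window.

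The ligands of CCR2, the receptor by which monocytes leave the marrow and enter tissue, were lower in TranspExer, as was *Ccl8*. All 4 of these monocyte attractants were called lower. They lie together on chromosome 11 (chr11:82035571-82116799, GRCm38), in a stretch of 270 kb that ends with *Ccl1* (chr11:82035571-82305690). The level of *Ccl2*, the main monocyte attractant, was 80.2, 44.1 and 54.5 CPM in TranspCtrl replicates 1, 2 and 3 and 29.2, 30.9 and 25.1 CPM in TranspExer replicates 1, 2 and 3. *Ccl7*, which shares that receptor, was at 42.3, 27.3 and 29.9 CPM against 16.7, 15.5 and 13.5 CPM. Every TranspCtrl sample was above every TranspExer sample for both, and replicate 1 was the highest. *Ccl12*, a further mouse ligand of CCR2, was at 20.1, 9.19 and 10.6 CPM against 4.45, 3.31 and 3.58 CPM. *Ccl8*, which in mice acts through CCR8, was at 28.7, 10.8 and 12.1 CPM against 3.66, 3.02 and 2.43 CPM. Both again had their highest value in TranspCtrl replicate 1 and no overlap between groups. Log2 fold changes were -1.07 ± 0.21 (SE) for *Ccl2* (adjusted p = 0.00666), -1.13 ± 0.17 for *Ccl7* (0.00259), -1.81 ± 0.31 for *Ccl12* (0.00404) and -2.50 ± 0.40 for *Ccl8* (0.00315), the last a 5.65-fold lower level. Without TranspCtrl replicate 1, these became -0.81, -0.92, -1.39 and -1.92, so *Ccl2* and *Ccl7* no longer reached a fold change of 2, while the adjusted p of *Ccl2* was 2.3e-05 and that of *Ccl7* 6.18e-06. The macrophage and monocyte marker sum was likewise highest in TranspCtrl replicate 1, at 14869 CPM against 9929 and 10186 in replicates 2 and 3 and 8223 to 8773 in TranspExer, with 1 of 15 markers called lower (*Lyz2*, and 0 without that sample), 4 higher and 2 lower by adjusted p alone. Without *Lyz2* the groups overlapped. The other 14 markers summed to 5769, 5034 and 4948 CPM in TranspCtrl and 5538 to 5691 CPM in TranspExer. TranspCtrl replicate 1 was still the highest of the 6 samples, while replicates 2 and 3 lay below TranspExer. The stromal sum was 13672, 21857 and 20903 CPM against 13341 to 14645, or 9108 to 11905 against 6547 to 6937 without *Col1a1*, with 5 of 15 markers called lower. By adjusted p alone, 9 stromal markers were lower and 2 higher, *Vcam1* (log2 fold change 0.65) and *Pdgfrb* (0.39). The part of macrophages and monocytes or of stromal cells in the ligand result was not tested.

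The receptor *Ccr2* itself was at 86.2, 72.0 and 73.4 CPM in TranspCtrl and 46.4, 48.3 and 50 CPM in TranspExer. The groups did not overlap, and the log2 fold change was -0.68 ± 0.09 (SE) with an adjusted p of 0.00135, below a fold change of 2. *Ccr8*, the receptor of *Ccl8* and *Ccl1*, had 7, 5 and 4 counts against 6, 5 and 2 and was not tested. Its ligand *Ccl1*, at the end of the same stretch of chromosome 11, had 3, 0 and 0 counts against 4, 4 and 4.

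Ligands of CXCR2, the receptor that draws neutrophils, were lower in TranspExer in all 4 tested cases. They too are neighbours, within 147 kb on chromosome 5 (chr5:90759360-90905938), among them the 3 genes with the shared stretch shown above. *Cxcl5* was at 8.40, 5.29 and 5.44 CPM in TranspCtrl replicates 1, 2 and 3 and 1.41, 2.03 and 1.24 CPM in TranspExer replicates 1, 2 and 3. *Cxcl3* was at 2.15, 3.90 and 3.44 CPM against 0.523, 0.930 and 0.646 CPM. The groups lay apart for both, and TranspCtrl replicate 1 was the highest for *Cxcl5* but the lowest of its group for *Cxcl3*. *Cxcl1* was at 2.44, 0.924 and 0.883 CPM against 0.419, 0.407 and 0.397 CPM, and *Cxcl2* at 9.67, 4.67 and 4.37 CPM against 3.45, 3.31 and 2.63 CPM. Here too the groups did not overlap, and replicate 1 exceeded the other TranspCtrl samples by more than these exceeded TranspExer. The log2 fold changes were -2.04 ± 0.27 (SE) for *Cxcl5* (adjusted p = 0.00129), -2.18 ± 0.33 for *Cxcl3* (0.00229), -1.78 ± 0.49 for *Cxcl1* (0.0277) and -0.99 ± 0.32 for *Cxcl2* (0.0479), the last just under a fold change of 2. Without TranspCtrl replicate 1 they were -1.79, -2.40, -1.14 and -0.54. Leaving out any 1 of the 3 TranspExer samples raised the adjusted p of *Cxcl1* to between 0.0849 and 0.095 and that of *Cxcl2* to between 0.106 and 0.159, above the threshold.

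The receptor *Cxcr2* was at 11.8, 10.3 and 9.72 CPM in TranspCtrl and 6.91, 7.79 and 6.90 CPM in TranspExer, without overlap. Its log2 fold change was -0.56 ± 0.13 (adjusted p = 0.0131), and the adjusted p passed the threshold without each sample except TranspExer replicate 1 (0.0559) or 3 (0.0576). *Cxcr1*, the related neutrophil receptor, was at 0.195, 0.411 and 0.418 CPM against 0.628, 0.639 and 0.844 CPM, and its higher level did not pass the test (log2 fold change 1.03 ± 0.38, adjusted p = 0.0732). The neutrophil marker sum was 3301 to 4378 CPM in TranspCtrl and 5626 to 5844 CPM in TranspExer, with 2 of 11 markers called, the granule enzymes *Mpo* and *Elane* of immature neutrophils. The other 9 markers summed to 2960 to 4153 CPM against 3903 to 4272 CPM, which overlapped. By adjusted p alone, 4 of the 11 were higher, *Ngp* (log2 fold change 0.53) and *Csf3r* (0.53) being the others, and 1 was lower, *Ly6g* (-0.54). Their part in these results was not tested.

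Both tested ligands of CXCR3, a receptor of activated T cells and NK cells, were lower. The genes are induced by interferon-gamma and lie within 44 kb on chromosome 5 (chr5:92321347-92365485). *Cxcl9* was at 62.2, 44.7 and 49.5 CPM in TranspCtrl and 23.5, 25.6 and 20.5 CPM in TranspExer, and *Cxcl10* at 31.1, 25.6 and 26.6 CPM against 14.1, 15.8 and 13.4 CPM. The groups did not overlap for either gene. *Cxcl9* had a log2 fold change of -1.17 ± 0.14 (SE, adjusted p = 0.000815) and *Cxcl10* one of -0.94 ± 0.11 (0.000823), so only the first reached a fold change of 2. Both passed the adjusted p threshold without each sample in turn. *Cxcl11*, the third gene of the stretch, had 3, 2 and 3 counts against 2, 2 and 6. *Cxcr3*, their receptor, was at 3.37, 4.00 and 4.00 CPM against 4.45, 3.95 and 3.68 CPM, which overlapped (log2 fold change 0.09 ± 0.16, adjusted p = 0.705).

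**Figure D2:**
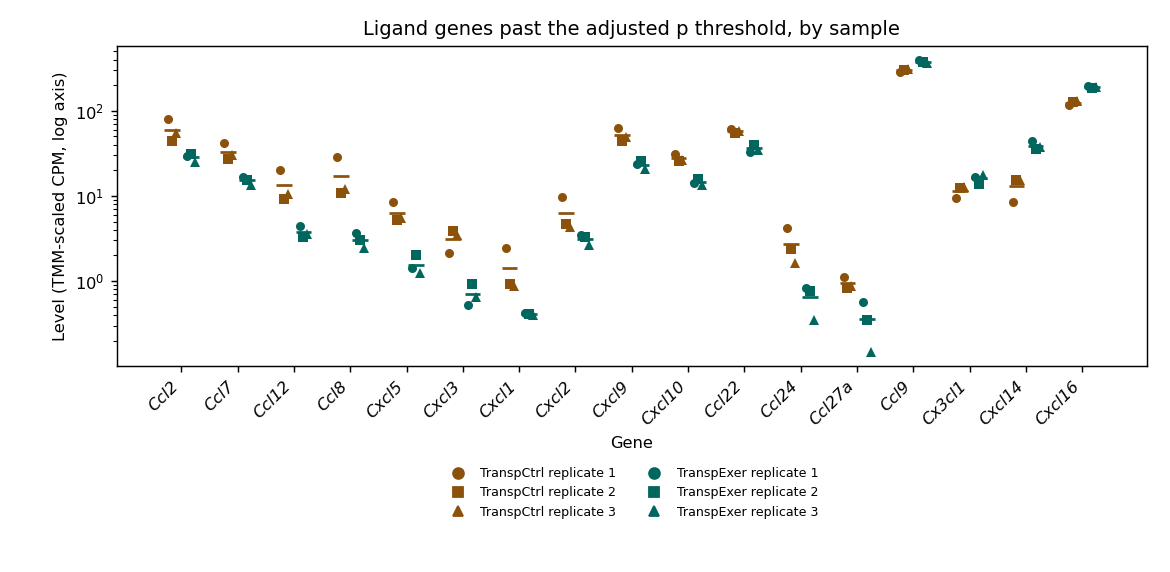
Level of each ligand gene past the adjusted p threshold in every sample (vertical axis, CPM scaled by TMM factors, log axis), with the mean of each group as a line. For the first 13 genes all TranspCtrl samples (brown) lay above all TranspExer samples (green), and for the last 4 they lay below.

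A second set of CC ligands, *Ccl3*, *Ccl4*, *Ccl5*, *Ccl6* and *Ccl9*, attracts macrophages, T cells and osteoclast precursors, and none of these 5 was called. They lie on the same chromosome as *Ccl2*, within 139 kb (chr11:83525778-83664683). *Ccl9*, a product of macrophages and osteoclasts, was at 289, 304 and 311 CPM in TranspCtrl and 392, 376 and 364 CPM in TranspExer, all higher than in TranspCtrl. Its log2 fold change was 0.32 ± 0.08 (SE) with an adjusted p of 0.0163, which rose to 0.0722 and 0.0721 without TranspExer replicate 1 and replicate 2. *Ccl6*, its close relative, was at 754, 525 and 541 CPM against 538, 502 and 468 CPM, which overlapped (log2 fold change -0.27 ± 0.15, adjusted p = 0.187). *Ccl3* was at 24.7, 26.6 and 29.6 CPM against 34.4, 31.0 and 29.5 CPM, and *Ccl4* at 10.4, 6.37 and 7.76 CPM against 10.7, 9.01 and 10.6 CPM. *Ccl5*, a T cell and macrophage product, was at 9.13, 11.6 and 12.2 CPM against 9.31, 8.31 and 7.60 CPM. These last 3 overlapped between groups, with log2 fold changes of 0.23, 0.31 and -0.38 and adjusted p of 0.118, 0.236 and 0.0807. Without TranspCtrl replicate 1, *Ccl4* was higher (0.51, adjusted p = 0.00886) and *Ccl5* lower (-0.51, 0.00401).

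*Ccr1*, the receptor of *Ccl3*, *Ccl6* and *Ccl9*, was at 158, 129 and 127 CPM in TranspCtrl and 123, 119 and 112 CPM in TranspExer, without overlap, but did not pass the test (log2 fold change -0.22 ± 0.10, adjusted p = 0.134).

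**Figure D3:**
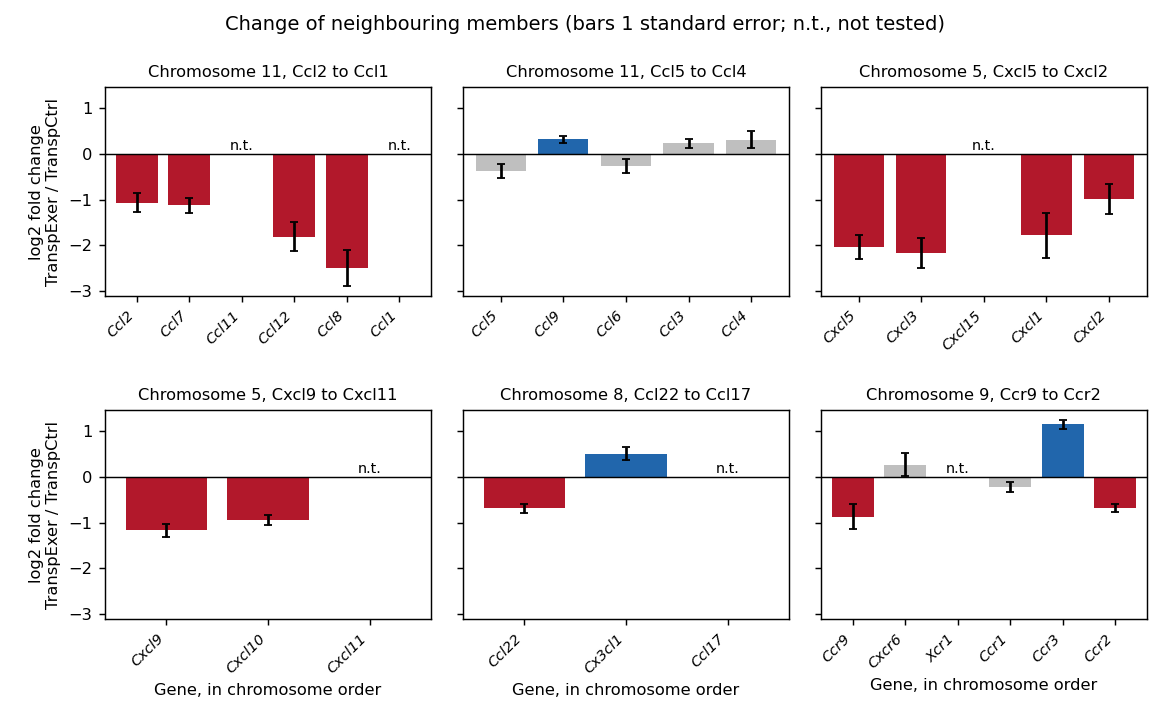
Log2 fold change (vertical axis, bars of 1 standard error) of members that lie next to each other, in chromosome order, with genes lower or higher by adjusted p in red or blue and others in grey. In the Ccl2 and Cxcl5 stretches all 4 tested genes were lower, in the Ccl5 stretch 1 of 5 was higher, and the receptors on chromosome 9 went both ways.

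The ligands of CCR3 and CCR4 were lower where they could be tested. *Ccl24*, an eosinophil attractant made by alternatively activated macrophages, was at 4.20, 2.36 and 1.63 CPM in TranspCtrl and 0.837, 0.756 and 0.348 CPM in TranspExer, with no overlap. It fell by 2.08 ± 0.45 (SE) on the log2 scale (adjusted p = 0.0113), and without TranspExer replicate 3 the adjusted p was 0.052. *Ccl11*, the main eosinophil attractant, had 1 count in each TranspCtrl sample and 0 in each TranspExer sample. Their receptor *Ccr3*, found on eosinophils and basophils, moved the other way. It was at 14.0, 16.6 and 16.6 CPM in TranspCtrl and 35.4, 35.0 and 34.3 CPM in TranspExer, a log2 fold change of 1.15 ± 0.10 (adjusted p = 0.000151), the one receptor called higher. The samples of each group lay close together and far from the other group. Of the 8 markers of eosinophils, basophils and mast cells, 4 were called higher, among them the eosinophil granule genes *Epx* (log2 fold change 2.80) and *Prg2* (2.74), and 1 lower, the eosinophil receptor gene *Il5ra* (-1.98), and their sum was 64.1 to 89.2 CPM against 159 to 174 CPM. The part of these cells in the level of *Ccr3* was not tested.

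*Ccl22*, which attracts regulatory T cells through CCR4, was at 61.2, 55.1 and 58.2 CPM in TranspCtrl and 33.2, 40.2 and 35.0 CPM in TranspExer. The groups were well separated (log2 fold change -0.69 ± 0.09, adjusted p = 0.00145). *Ccl17*, the other CCR4 ligand, had 11, 4 and 3 counts against 2, 1 and 0, and *Ccr4* had 6, 9 and 7 counts against 0, 1 and 5, too few for a test. Between *Ccl22* and *Ccl17* on chromosome 8, a stretch of 66 kb (chr8:94745590-94812036), lies *Cx3cl1*, a ligand that is made as a membrane protein. It was at 9.38, 12.3 and 12.6 CPM against 16.9, 14.0 and 17.8 CPM and rose (log2 fold change 0.51 ± 0.15, adjusted p = 0.0338), opposite to its neighbour. Endothelial cells, a usual source of *Cx3cl1*, had all 10 of their markers higher by adjusted p, with sums of 211 to 265 CPM against 709 to 776 CPM, and their part in this result was not tested. Without TranspExer replicate 1 or 3 its adjusted p was 0.108 or 0.129. *Cx3cr1*, its receptor on monocytes and macrophages, was at 113, 124 and 110 CPM against 140, 138 and 144 CPM, with no overlap. It rose by a log2 fold change of 0.29 ± 0.08 (adjusted p = 0.0268), and the adjusted p was between 0.0838 and 0.0986 when TranspCtrl replicate 3 or any TranspExer sample was left out. *Xcl1*, a T cell and NK cell product, was at 2.05, 1.13 and 1.44 CPM against 0.889, 0.872 and 0.944 CPM and did not pass the test (log2 fold change -0.77, adjusted p = 0.0793).

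The other CXC ligands detected, *Cxcl14* and *Cxcl16*, rose. *Cxcl14*, made mostly by epithelial and stromal cells, was at 8.50, 15.3 and 15.2 CPM in TranspCtrl and 44.2, 35.4 and 37.2 CPM in TranspExer, and was the one ligand called higher. The lowest TranspExer sample was above 2 times the highest TranspCtrl sample, and the log2 fold change was 1.58 ± 0.21 (SE, adjusted p = 0.00138), or 1.35 without TranspCtrl replicate 1. *Cxcl16*, a membrane-bound ligand that is also a scavenger of oxidised lipoprotein, was at 116, 126 and 129 CPM against 194, 187 and 192 CPM. It differed by 0.62 ± 0.08 (adjusted p = 0.000874) with little spread in either group. *Cxcr6*, its receptor on T cells, was at 1.42, 1.39 and 1.67 CPM against 1.62, 2.32 and 1.49 CPM, which overlapped (log2 fold change 0.27 ± 0.25, adjusted p = 0.438). *Cxcr4*, the receptor that retains blood cells in the marrow, was at 91.5, 147 and 143 CPM against 217, 215 and 235 CPM. Its groups lay apart, with TranspCtrl replicate 1 the lowest, and the log2 fold change was 0.81 ± 0.17 (adjusted p = 0.00971), or 0.61 without that sample.

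Tested receptors best known from lymphocytes, set side by side here after their values were seen, did not all move one way. *Ccr6*, *Ccr7*, *Ccr9* and *Ccr10* were lower by adjusted p, *Cxcr5*, *Cxcr3* and *Cxcr6* did not pass the test, and *Cxcr4*, which most blood cells carry, was higher. *Ccr6*, found on B cells and some T cells, was at 3.42, 3.08 and 2.98 CPM in TranspCtrl and 0.209, 0.349 and 0.447 CPM in TranspExer. It showed the largest fold change among the 42 tested members, 9.24-fold lower (log2 fold change -3.21 ± 0.29 SE, adjusted p = 0.00023). *Ccr10*, which guides plasma cells, was at 3.71, 3.29 and 3.77 CPM against 0.942, 1.63 and 0.944 CPM, a log2 fold change of -1.62 ± 0.25 (adjusted p = 0.00261). Neither overlapped between groups, and both were called without each sample in turn. *Ccr7*, which brings lymphocytes and dendritic cells to lymph nodes, was at 4.93, 5.08 and 5.02 CPM against 2.35, 2.73 and 2.68 CPM. It fell by 0.95 ± 0.15 on the log2 scale (adjusted p = 0.00291), just under a fold change of 2, with very even levels within each group. *Ccr9*, a gut-homing receptor, was at 2.69, 2.21 and 2.84 CPM against 1.10, 1.98 and 1.19 CPM (log2 fold change -0.87 ± 0.27, adjusted p = 0.0417). The groups only just failed to overlap, and the adjusted p was between 0.107 and 0.135 without TranspCtrl replicate 3, TranspExer replicate 1 or TranspExer replicate 3. *Cxcr5*, which leads B cells into follicles, was at 6.01, 6.98 and 6.32 CPM against 3.71, 4.53 and 5.66 CPM, without overlap, and did not pass the test (log2 fold change -0.47 ± 0.18, adjusted p = 0.078). Without TranspCtrl replicate 1 or TranspExer replicate 3 its adjusted p was 0.0314 or 0.0485. Its exons overlap those of *Bcl9l* on the opposite strand, with a mean of 1637 counts against 110, and how the authors assigned reads of overlapping genes is not given in the sources used here.

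Of 10 markers of B and plasma cells, 7 were called lower, among them *Mzb1* (log2 fold change -3.57), *Jchain* (-2.29) of antibody-secreting cells and *Ms4a1* (-1.25) and *Cd79b* (-1.38) of B cells, and none was called higher. The marker sum was 3992 to 6437 CPM in TranspCtrl and 963 to 1039 CPM in TranspExer. In the 10 T and NK cell markers, 1 was called higher (*Nkg7*) and 1 lower (*Cd3d*), and their median log2 fold change was -0.14. Their sum was 61.6 to 64.9 CPM against 81.7 to 87.4 CPM, carried by *Cd4* and *Nkg7*, without which the other 8 summed to 12.4 to 17.1 CPM against 10.9 to 12.9 CPM. The part of these cells in the receptor levels was not tested.

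**Figure D4:**
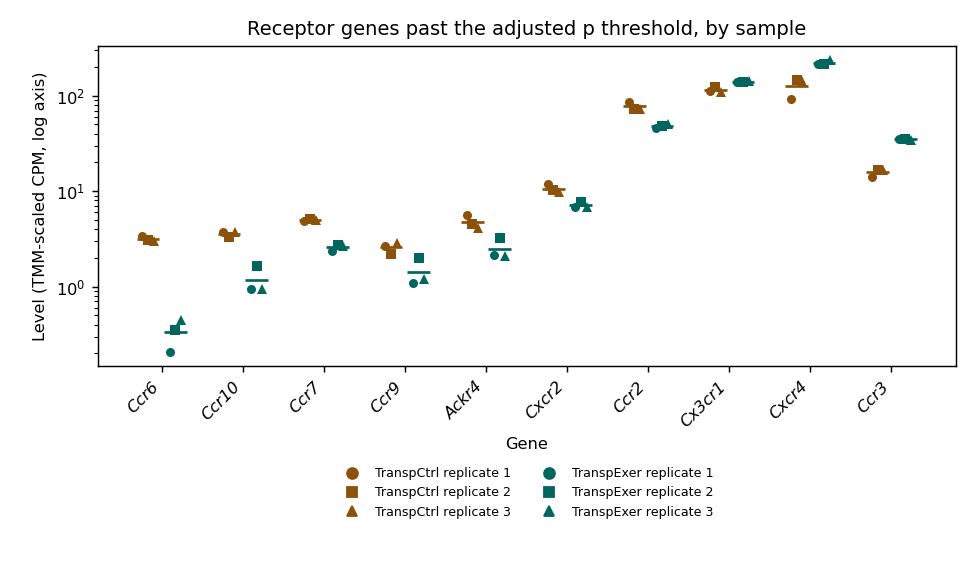
Level of 10 of the 11 receptor genes past the adjusted p threshold in every sample (vertical axis, CPM scaled by TMM factors, log axis), with the mean of each group as a line. For the first 7 genes the TranspCtrl samples (brown) lay above the TranspExer samples (green), with the widest gap for Ccr6, and for the last 3 they lay below.

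**Figure D5:**
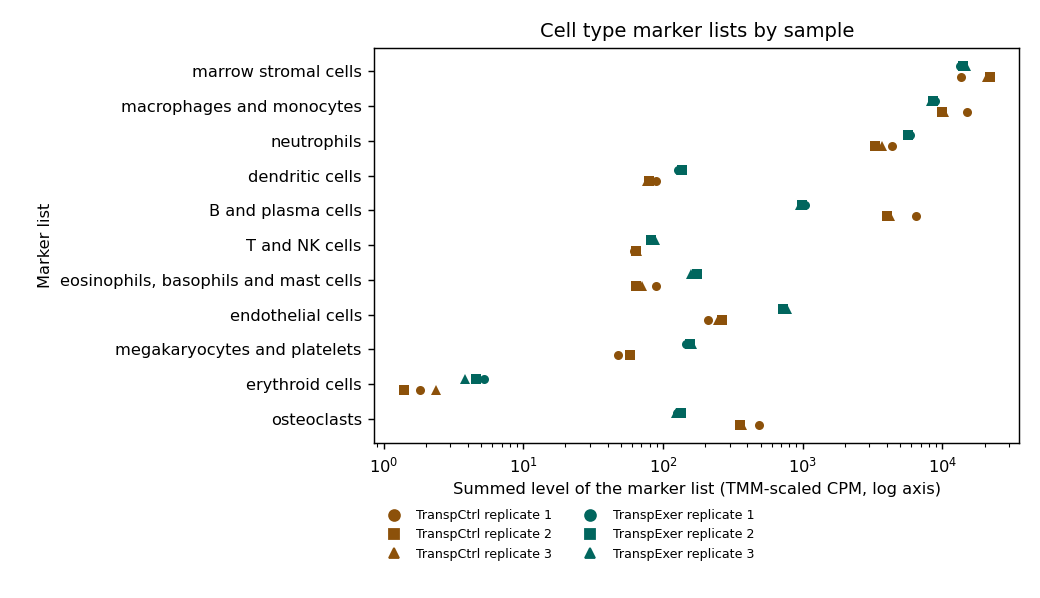
Summed level of 11 cell type marker lists in every sample (horizontal axis, CPM scaled by TMM factors, log axis). The B and plasma cell sums lay between 3992 and 6437 CPM in TranspCtrl and between 963 and 1039 CPM in TranspExer, and the sums of eosinophils, basophils and mast cells were higher in TranspExer.

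The ligands of CCR6 and CCR7 were below the low-count filter. *Ccl20*, the ligand of CCR6, had 4, 3 and 2 counts in TranspCtrl and 0 in each TranspExer sample, and *Ccl19*, a ligand of CCR7, had 5, 4 and 1 counts against 0, 0 and 1. *Ccl21a*, another CCR7 ligand, had 1 count in 1 sample. *Ccl28*, a mucosal ligand of CCR10, had 8, 8 and 9 counts against 3, 10 and 3. None of these 4 genes was tested. *Ccl27a*, the skin ligand of CCR10, was at 1.12, 0.821 and 0.883 CPM against 0.575, 0.349 and 0.149 CPM and was called lower (log2 fold change -1.39 ± 0.44, adjusted p = 0.0434). The call ended when any sample other than TranspExer replicate 1 was left out, with adjusted p of up to 0.115. Exons of *Ccl27a* overlap those of *Il11ra1* on the opposite strand, which had a mean of 858 counts against 13.0. *Ccl25*, the ligand of CCR9, was at 4.59, 3.08 and 3.16 CPM against 3.14, 2.96 and 2.48 CPM, which overlapped (log2 fold change -0.34, adjusted p = 0.262), and it overlaps exons of *Elavl1*, with a mean of 3618 counts against 63.8.

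A set of receptor genes on chromosome 9 lies together (chr9:123678439-124113557, 435 kb) but did not move together. Along the chromosome, *Ccr9* was lower, *Cxcr6* did not pass the test, *Xcr1* had 1 to 5 counts and was not tested, *Ccr1* did not pass, *Ccr3* was higher and *Ccr2* lower. *Ccr3* and *Ccr2*, neighbours in this order, differed in direction, with log2 fold changes of 1.15 and -0.68.

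Of the 4 atypical receptors 1 passed the adjusted p threshold. *Ackr4*, a scavenger of CCR7 and CCR9 ligands, was at 5.62, 4.52 and 4.09 CPM in TranspCtrl and 2.14, 3.25 and 2.09 CPM in TranspExer. It fell by 0.93 ± 0.23 (SE) on the log2 scale (adjusted p = 0.0177), and without TranspExer replicate 1 or 3 the adjusted p was 0.0715 or 0.0757. Its exons overlap *Acad11* on the opposite strand, with a mean of 382 counts against 71.7. *Ackr3*, a scavenger of CXC ligands, was at 9.96, 8.93 and 8.97 CPM against 7.79, 9.65 and 8.25 CPM. *Ackr2*, a scavenger of inflammatory CC ligands such as *Ccl2*, was at 2.54, 2.05 and 2.56 CPM against 1.41, 1.39 and 2.58 CPM. Both overlapped between groups, with adjusted p of 0.494 and 0.31. *Ackr1*, which takes up inflammatory ligands on erythroid and venous endothelial cells, was at 0.391, 0.257 and 0.186 CPM against 0.785, 0.581 and 0.546 CPM and missed the threshold (log2 fold change 1.19 ± 0.40, adjusted p = 0.0531). Without TranspCtrl replicate 1 it was called higher (1.51, adjusted p = 0.0333), and its exons overlap *Cadm3* on the same strand. Of the 10 endothelial markers given beside *Cx3cl1*, 8 were called higher, and their part in the level of *Ackr1* was not tested.

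Genes that carry or end the signal of chemokine receptors inside the cell were higher more often than lower. They include G protein subunits, Rac activators, arrestins and regulators of G protein signalling. Of 48 tested, 27 were higher and 2 lower by adjusted p, beside 16.6% and 15.5% of all genes, and their median log2 fold change was 0.38. Their summed level was 6035, 7398 and 7318 CPM in TranspCtrl replicates 1, 2 and 3 and 8965 to 9185 CPM in TranspExer, so that TranspCtrl replicate 1 was the lowest. Without it, 35 were higher and 3 lower, beside 22.1% and 20.4% of all genes, and the median was 0.33. The 2 called were *Rgs1* (1.5 ± 0.25 SE, adjusted p = 0.00377) and *Rgs16* (1.19 ± 0.14, adjusted p = 0.000653), both of which end G protein signals. The lower ones were *Pik3cg* (-0.27) and *Jak2* (-0.38), neither past a fold change of 2.

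The NF-kappaB, interleukin, TNF and interferon-gamma pathways induce chemokine transcription. Of 35 of their genes tested, 11 were higher and 4 lower by adjusted p, beside 16.6% and 15.5% of all genes, and the median was 0.07. These counts were 14 and 8 without TranspCtrl replicate 1, beside 22.1% and 20.4% of all genes. The cytokine gene *Il1b* (-1.88 ± 0.41 SE, adjusted p = 0.0114) and the feedback inhibitor *Socs3* (-1.03 ± 0.08, adjusted p = 0.000131) were called lower. Among the higher genes were the transcription factor gene *Fos* (0.69, adjusted p = 0.000683), the TNF receptor gene *Tnfrsf1b* (0.56, 0.00156) and the NF-kappaB subunit gene *Rela* (0.58, 0.0401). Another NF-kappaB subunit gene, *Nfkb2*, was lower (-0.24, adjusted p = 0.0378). The subunit genes *Nfkb1* (0.26, 0.0642) and *Relb* (0.06, 0.707) did not pass the test. The interleukin receptor gene *Il1r1* was lower (-0.88, adjusted p = 0.000335), whereas *Tnf*, *Il6* and *Irf1* did not pass the test, with log2 fold changes of -0.34, -0.02 and -0.45.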

How the data were processed

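RNA-Seq of marrow cells from 6 samples was used, grouped by the treatment in the labels. The authors deposited an estimated count (expected count) per gene and sample, without normalization. Submitters' processing notes name the mm10 build. The aligner, counting tool and annotation are not given in the sources used here, and the labels name a stranded mRNA kit whereas the methods name a TruSeq kit.

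Counts were rounded (10.1% to 12.2% of values per sample were not whole) and tested with edgeR 4.0.16 (filterByExpr, TMM, quasi-likelihood test, group as the only term) in R 4.3.3, with Benjamini-Hochberg adjustment over 15190 genes. An exact permutation test of 3 against 3 samples cannot give p under 0.1. CPM were scaled by TMM factors. Coordinates and exon overlaps came from GENCODE M21 and promoter windows from RefSeq, both on GRCm38. The tests were checked on simulated data.

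Members, lists and motifs were chosen with earlier results of these data known. One ligand and some other genes are not reported here, though counts of members include the latter. Values by sample are given for members past either threshold, those averaging 50 CPM or more, and the ligand or receptor partners of called members. All other members with values were added after these were seen. In other lists up to 4 called genes were named by smallest adjusted p, and the genes not called were chosen after their values were seen. Alternatives were DESeq2 1.42.0, other scalings and filters, a replicate block, a fold change of 2 tested in the model and each sample left out. The counts for other lists without TranspCtrl replicate 1 and marker sums without single markers were added after seeing the data.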

Additional observations from a re-analysis of the deposited data

How the results depend on the processing

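Every tested member kept its direction under all alternatives run. Of 542 values of single members under an alternative, 470 kept their side of the threshold, 63 lost it and 9 gained it. Among these alternatives was a stricter test, which asked whether a change exceeded 2-fold and not whether any change occurred. Part of the 63 losses came from that other question and not from the processing. The counts called lower were 10 ligands and 2 receptors, and DESeq2 gave 9 and 2. With upper-quartile normalization or scaling by library size only, 12 ligands and 4 receptors were called lower, *Ccr7* and *Ackr4* being added to the receptors, and 2 receptors were higher by adjusted p alone against 4, with *Cx3cr1* among those lost and 8 lower. These scalings moved the median log2 fold change of all genes from -0.02 to -0.10 each. When a fold change of 2 was tested in the model, 3 ligands (*Ccl8*, *Cxcl3* and *Cxcl5*) and 1 receptor (*Ccr6*) were called lower and 0 ligands and 0 receptors higher, against 274 genes lower and 138 higher among all. Leaving out each sample in turn gave 7 to 11 ligands and 2 to 4 receptors called lower (4 without TranspExer replicate 2), 1 ligand and 1 to 2 receptors called higher, and, by adjusted p alone, 2 to 5 ligands higher and 9 to 13 lower and 2 to 5 receptors higher and 4 to 8 lower. The lowest of these were 7 ligands called lower without TranspCtrl replicate 1 or TranspExer replicate 3, 2 ligands higher and 4 receptors lower by adjusted p without TranspExer replicate 1, and 2 receptors higher without TranspCtrl replicate 3 or any TranspExer sample. For all genes these ranges were 656 to 853 lower and 437 to 560 higher. With the replicate number as a block, 10 ligands and 2 receptors were called lower, and *Ccr9* alone lost its place past the adjusted p threshold (0.068). Same-numbered samples shared only a number (correlations of their deviations from the group means 0.0247, -0.00167 and 0.0416), and not every sample correlated best with its own number. Depth limits the precision of the members with few counts, such as *Ccl27a* with a mean of 13.0 counts per sample.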

Other observations

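Chemoattractants that the naming rule leaves out moved in both directions. Of 13 such genes 12 were tested, and *Gpr33* was at 0 counts in all samples. Called higher were *Ppbp* (log2 fold change 1.26, edgeR adjusted p = 5.6e-05), a platelet CXC chemokine, the complement receptor gene *C5ar1* (1.24, 0.00342) and *Lgals3* (1.21, 9.4e-05), a lectin that attracts macrophages. *Rarres2*, the chemerin gene, was called lower (-1.21, 0.0226), though 0 of these genes were called lower without TranspCtrl replicate 1, while *Cmklr1*, its receptor, was higher by adjusted p alone (0.30, 0.0418). *Pf4*, another platelet chemokine gene, did not pass the test (0.02, 0.948). Megakaryocyte and platelet markers summed to 47.7 to 58.4 CPM in TranspCtrl and 146 to 160 CPM in TranspExer, with 5 of 6 called higher, and their part in the level of *Ppbp* was not tested.

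Further marker lists stood as follows. Of 6 osteoclast markers 5 were called lower, among them *Ctsk* (-2.51), *Dcstamp* (-2.26), *Acp5* (-1.29) and *Oscar* (-3.60), with sums of 357 to 482 CPM against 124 to 134 CPM. Of 6 dendritic cell markers tested 1 was called higher, and their sum was 76.1 to 89.2 CPM against 128 to 136 CPM, or 9.91 to 10.4 CPM against 12.6 to 14.7 CPM without *Itgax*. Of the 6 erythroid markers 1 was tested, and it was called higher.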
